A study of Mus musculus with 4 samples.

Results

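The let-7 family was followed here through 9 mature microRNAs (miRNAs) of the mouse: let-7a-5p, let-7b-5p, let-7c-5p, let-7d-5p, let-7d-3p, let-7f-5p, let-7g-5p, let-7i-5p and miR-98-5p. They were taken by name from 1078 mature miRNAs in the deposited table, and let-7e was left out of the set. Small RNA had been sequenced from 4 kinds of C57BL/6J mouse cells, with 1 library each. HSC were haematopoietic stem cells, sorted from bone marrow as c-Kit+ Sca1+ Lineage- cells at a purity above 95%. imDC were immature dendritic cells, grown for 6 days from bone marrow of mice 5 to 6 weeks old (an age the labels give for the marrow cultures) with GM-CSF at 10 ng/mL and IL-4 at 1 ng/mL. maDC were mature dendritic cells, which also received LPS at 10 ng/mL after day 4 and were taken at day 8 with CD11c beads. DCreg were regulatory dendritic cells: maDC co-cultured for 7 days or more with endothelial-like stromal cells of the spleen, then washed off and purified with CD11c beads. The labels do not say how many animals went into a library.

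let-7 miRNAs repress the messenger RNAs that pair with their seed, bases 2 to 8 counted from the 5′ end. A hairpin precursor is cut by Drosha and Dicer, 1 of its arms is loaded into an Argonaute protein, and the other arm, the passenger, is mostly degraded. The family is abundant in differentiated cells and low in embryonic stem cells and fetal blood stem cells, where LIN28 proteins bind its precursors and block their maturation. let-7d-3p is the passenger arm of the let-7d hairpin and has a seed of its own, so it belongs to the family by its hairpin and not by its targets.

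The mature sequences, from RefSeq (GRCm38.p6), are given because the members differ by so few bases that counting them apart is part of every result. The seed is in capitals.
let-7a-5p: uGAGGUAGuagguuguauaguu
let-7b-5p: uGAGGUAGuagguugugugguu
let-7c-5p: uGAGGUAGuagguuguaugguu
let-7d-5p: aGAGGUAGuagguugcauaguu
let-7f-5p: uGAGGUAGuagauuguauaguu
let-7g-5p: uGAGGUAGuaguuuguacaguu
let-7i-5p: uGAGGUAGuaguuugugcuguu
miR-98-5p: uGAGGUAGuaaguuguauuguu
let-7d-3p: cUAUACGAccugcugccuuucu

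All 9 are 22 nt long, and the 8 members from the 5′ arm share the seed GAGGUAG. Counted from 1 at the 5′ end, let-7c-5p differs from let-7a-5p by A19G alone, let-7f-5p differs from let-7a-5p by G12A alone, and let-7b-5p differs from let-7a-5p by A17G and A19G. let-7e-5p has the same seed, and the only other miRNA of the table with it was miR-1961, whose deposited value was 6 or less in each library.

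The 9 miRNAs come from 11 hairpins (GRCm38 coordinates, GENCODE vM21 annotation). Mirlet7d (chr13:48536012-48536114), Mirlet7f-1 (chr13:48537829-48537917) and Mirlet7a-1 (chr13:48538179-48538272) lie on the minus strand in exons of the long noncoding RNA 6720427I07Rik, with gaps of 1714 and 261 bases between them. Mirlet7c-2 (chr15:85706603-85706697) and Mirlet7b (chr15:85707319-85707403) lie 621 bases apart on the plus strand in exons of the noncoding transcript Lncppara. Mirlet7f-2 (chrX:151912346-151912428) and Mir98 (chrX:151913214-151913321) lie 785 bases apart in introns of Huwe1, a ubiquitin ligase gene. Mirlet7c-1 (chr16:77599657-77599750) is in an intron of Mir99ahg, 656 bases after Mir99a, and Mirlet7a-2 (chr9:41536716-41536811) is in an intron of a noncoding transcript, 5211 bases after Mir100. Mirlet7g (chr9:106178840-106178927) is in an intron of Wdr82, and Mirlet7i (chr10:122985640-122985724) overlaps an exon of the pseudogene D630033A02Rik. Because let-7a-5p, let-7c-5p and let-7f-5p each come from a pair of hairpins with the same mature sequence, nearly all of their reads cannot be assigned to a locus. Reads that run at least 3 bases into sequence that only 1 hairpin of the pair holds numbered at most 25 per hairpin and library. For let-7c-5p they came to 20 from Mirlet7c-1 and 6 from Mirlet7c-2 in HSC, 15 and 4 in imDC, then 21 and 4 in maDC and 11 and 0 in DCreg.

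Levels are given on 2 scales. The first is the deposited normalised value, summed over hairpins and given as parts per 1000000 (ppm) of all deposited values in that library. The second is a recount of the deposited reads, in ppm of the reads that matched any mature miRNA. The lists of reads held 6277096 reads in HSC and 6554086 in imDC, and 6572858 in maDC and 4904897 in DCreg, and 80.2% to 84% of them matched a mature miRNA. Each cell type had 1 library, so there is no replicate check and no test: intervals on recounted values are 95% exact intervals that cover counting error only, and a difference was called at 2-fold with at least 100 ppm in either library. The libraries were also checked against marker miRNAs. The activated dendritic cell list (miR-155-5p, miR-147-3p and miR-9-5p) summed to 76.7 ppm in HSC, 4093 ppm in imDC, 2396 ppm in maDC and 229 ppm in DCreg. Each of these 3 was higher in imDC, which had no LPS, than in maDC, which had. miR-155-5p stood at 2609 against 1651 ppm and miR-9-5p at 739.5 against 155.5 ppm. The list thus did not mark maDC as the more activated library. The 3 blood lineage miRNAs summed to 23530 ppm in HSC and 10141 to 14196 ppm in the dendritic cell libraries. Most of each sum was miR-142-5p, while miR-142-3p stood at 861 ppm in imDC, 366 ppm in maDC and 94.7 ppm in DCreg. The 2 lymphoid miRNAs summed to 7697 ppm in HSC and 1443 to 3943 ppm in the dendritic cell libraries. Most of each sum was miR-181a-5p, while miR-150-5p stood at 914 ppm in HSC, 17.1 ppm in imDC, 1.56 ppm in maDC and 2.20 ppm in DCreg. The dendritic cell libraries held at most 19.0 ppm of 3 erythroid miRNAs and at most 259 ppm of 3 muscle miRNAs. In HSC these reached 13763 and 8676 ppm, although the sort was for Lineage- cells. The part of such RNA in the HSC levels of let-7 was not tested. Levels are shares of a total from many cells, so fewer cells of a type and less RNA per cell cannot be told apart.

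The family took up a large share of every library. The 9 members made up 45.3% of the deposited total in HSC and 28.4% in imDC, and 45% in maDC and 46.6% in DCreg. By recount the shares were 67.9%, 48.3%, 71.3% and 71.5% in the same order, so imDC was the library with the lowest share on both scales. All 9 members passed the 100 ppm minimum in each comparison on the deposited scale, and by recount let-7d-3p did not pass it in DCreg against maDC. The members differed widely among themselves: the most abundant of the 8 5p members exceeded the least abundant 114-fold in HSC, 37.6-fold in imDC, then 142-fold in maDC and 412-fold in DCreg on the deposited scale.

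let-7f-5p was at 97889 ppm in HSC, 48126 ppm in imDC, 116094 ppm in maDC and 98996 ppm in DCreg. let-7b-5p was at 87051 ppm in HSC, 42164 ppm in imDC, 92999 ppm in maDC and 142652 ppm in DCreg. let-7c-5p was at 59453 ppm in HSC, 25569 ppm in imDC, 51150 ppm in maDC and 102576 ppm in DCreg. These 3 shared a dip in imDC, and let-7b-5p and let-7c-5p had their highest level in DCreg. let-7a-5p was at 46853 ppm in HSC, 27632 ppm in imDC, 48516 ppm in maDC and 35965 ppm in DCreg. let-7d-5p was at 50439, 34332, 69669 and 44474 ppm in the same order. Both also dipped in imDC on this deposited scale and, like let-7f-5p, were highest in maDC. By recount they were slightly lower in DCreg, at 119448 and 24685 ppm, than in imDC, at 119683 and 25418 ppm.

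let-7g-5p and let-7i-5p followed another course. let-7g-5p was at 62014 ppm in HSC, 49326 ppm in imDC, 42997 ppm in maDC and 20770 ppm in DCreg. let-7i-5p was at 48384 ppm in HSC, 54972 ppm in imDC, 28079 ppm in maDC and 20574 ppm in DCreg. miR-98-5p, far less abundant, was at 857 ppm in HSC, 1460 ppm in imDC, 819 ppm in maDC and 346 ppm in DCreg. All 3 were lowest in DCreg. The passenger arm let-7d-3p was the least abundant member, at 233 ppm in HSC, 215 ppm in imDC, 121 ppm in maDC and 143 ppm in DCreg.

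**Figure D1:**
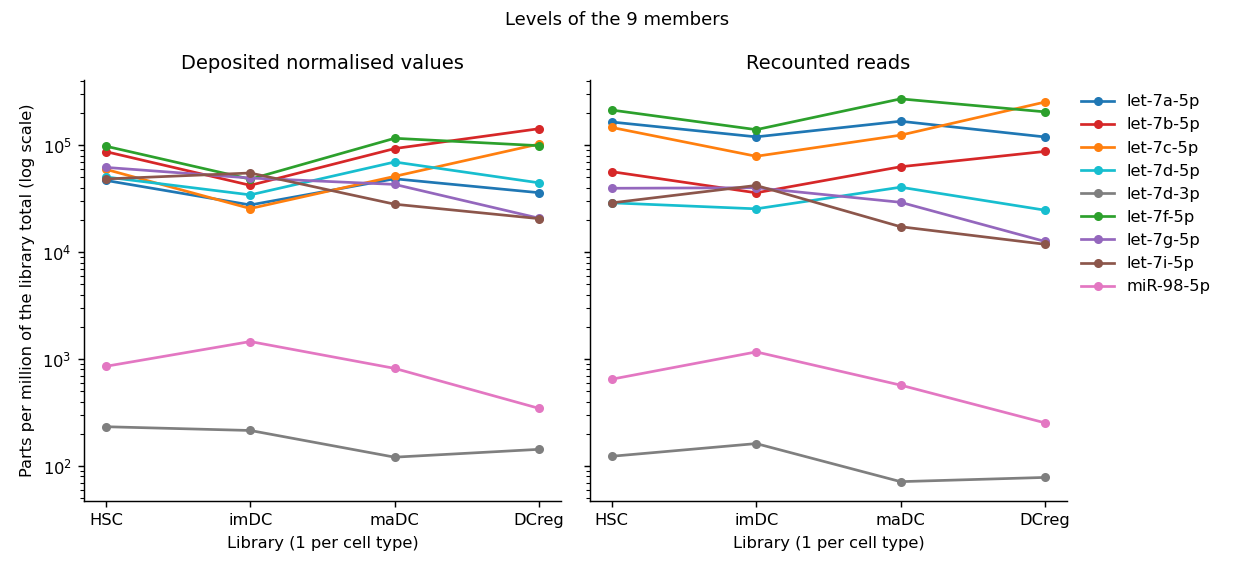
Level of each of the 9 members in the 4 libraries, in ppm of the library total on a log scale, from the deposited values (left) and from recounted reads (right); lines join values of the same member and there is 1 library per cell type. let-7b-5p and let-7c-5p are highest in DCreg in both panels, while let-7g-5p, let-7i-5p and miR-98-5p are lowest there.

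The order of the members depended on the scale. By recount let-7f-5p was the most abundant miRNA of HSC, imDC and maDC, with 213117, 139758 and 271121 ppm, and let-7c-5p was the most abundant miRNA of DCreg, with 253226 ppm. let-7a-5p, in place 9 to 12 on the deposited scale, was in place 2 or 3 by recount. The deposited value was 0.209 to 0.235 times the recounted reads for let-7a-5p, 0.281 to 0.334 times for let-7c-5p and 0.335 to 0.373 times for let-7f-5p, the members made from 2 hairpins. The 6 members made from 1 hairpin had 0.947 to 1.54 times. Outside the let-7 family, 71 miRNAs from 1 hairpin had a median ratio of 1.42 in HSC and 1.33 in imDC, and 1.37 in maDC and 1.23 in DCreg, and 10 miRNAs from 2 hairpins had 0.726, 0.674, 0.71 and 0.61, all with at least 200 recounted reads in every library. The submitters' handling of reads that match several hairpins was not given in these sources. Levels of different members are therefore compared only within a scale, and the comparisons between libraries are given on both.

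**Figure D2:**
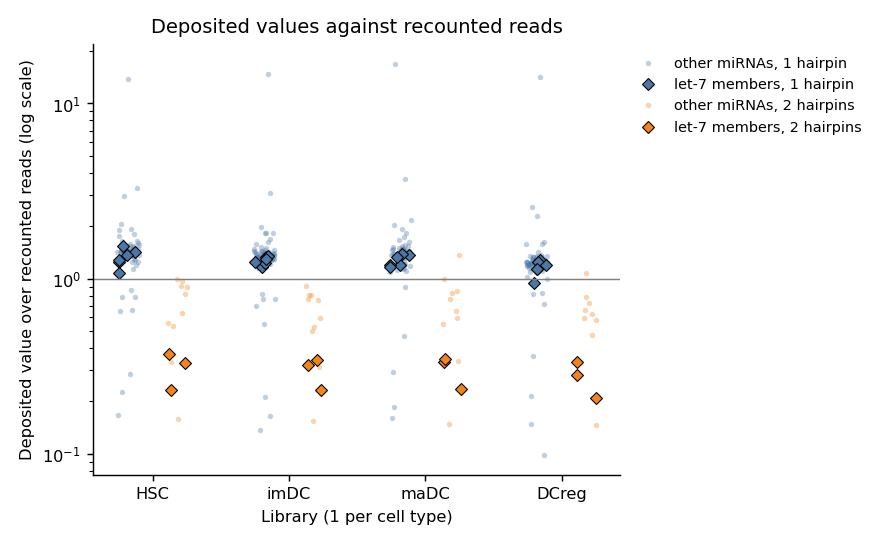
Deposited value divided by recounted reads for each miRNA with at least 200 recounted reads in every library (log scale), by library and by the number of hairpins that carry the mature sequence; points are miRNAs and diamonds are let-7 members. let-7a-5p, let-7c-5p and let-7f-5p lie between 0.209 and 0.373 and the members from 1 hairpin between 0.947 and 1.54.

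Few reads could not be assigned to 1 member. Reads that matched several members equally well were 0.587% of the let-7 reads in HSC, 0.736% in imDC, then 0.424% in maDC and 0.522% in DCreg. Most of them fitted let-7a-5p and let-7c-5p, whose first differing base is near the 3′ end, and such reads were split equally. Single-base changes in full-length reads gave a scale for miscalls. For the 3 A-to-G changes in let-7a-5p whose product is more than 1 base from every other family member, at most 283 to 385 reads were found per library. They lie at bases 3, 7 and 10, so this scale holds no change near the 3′ end. A17G, whose product is also 1 base from let-7b-5p, was left out of this scale, with 1209 to 3613 reads. A19G at the first of these frequencies would amount to 0.0815% of the full-length let-7c-5p reads in HSC, 0.1% in imDC, then 0.0778% in maDC and 0.0422% in DCreg. The same estimate for A17G, which turns let-7c-5p into let-7b-5p, was 0.19% to 0.486% of the full-length let-7b-5p reads. Both estimates would be higher if changes near the 3′ end were more frequent, which was not tested.

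In imDC against HSC, the question is how the family differs between stem cells and the immature dendritic cells grown from marrow. let-7b-5p, let-7c-5p and let-7f-5p were lower in imDC on the deposited scale, and none of the 9 members was called higher. let-7c-5p was 2.33-fold lower, at 25569 ppm in imDC and 59453 ppm in HSC. let-7b-5p was 2.06-fold lower and let-7f-5p 2.03-fold lower. None of these 3 calls held by recount, where let-7c-5p was 1.86-fold lower in imDC (interval 1.85 to 1.87), let-7b-5p 1.58-fold lower and let-7f-5p 1.52-fold lower, and no member reached 2-fold, where 36.2% of 149 miRNAs were called higher and 18.1% lower. miR-98-5p was the member furthest in the other direction, 1.7-fold higher in imDC, at 1460 ppm, against 857 ppm in HSC, and 1.8-fold higher by recount. Of all 187 miRNAs compared, 26.2% were called higher in imDC and 28.3% lower. The median log2 ratio was -0.55 over the 9 members and -0.12 over all 187. The direction was the same on both scales for 7 of the 9, the exceptions being let-7d-3p and let-7g-5p.

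In maDC against imDC, cells that had received LPS are set against cells that had not, harvested at day 8 and day 6. let-7b-5p, let-7c-5p, let-7d-5p and let-7f-5p were higher in maDC on the deposited scale, while let-7i-5p, miR-98-5p and let-7d-3p were lower without reaching 2-fold. let-7f-5p was 2.41-fold higher, at 116094 ppm in maDC and 48126 ppm in imDC. let-7b-5p was 2.21-fold higher, let-7d-5p 2.03-fold and let-7c-5p 2-fold. By recount the members moved in the same directions, 9 of 9, but other members passed the 2-fold line. let-7f-5p was 1.94-fold higher in maDC and let-7b-5p 1.75-fold, both under it. let-7i-5p was 2.43-fold lower in maDC (interval 2.41 to 2.45), at 17290 ppm, against 42061 ppm in imDC, let-7d-3p was 2.27-fold lower (interval 2.01 to 2.56) and miR-98-5p 2.04-fold lower. These 3 of 9 lower members stand beside 59.7% of 134 miRNAs called lower by recount, and 1.49% called higher. Of all 160 miRNAs compared, 9.38% were called higher in maDC and 45% lower on the deposited scale. The median log2 ratio was 0.81 over the members and -0.88 over all 160. The family sum was 1.59-fold higher in maDC on the deposited scale and 1.48-fold higher by recount.

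DCreg against maDC sets mature cells kept on splenic stroma for 7 days or more against mature cells taken at day 8. Stroma and the longer culture come together in DCreg and cannot be told apart. The family sum was nearly equal, 1.04-fold higher in DCreg on the deposited scale, while the members diverged. let-7c-5p was 2.01-fold higher, at 102576 ppm in DCreg and 51150 ppm in maDC, and 2.04-fold higher by recount (interval 2.03 to 2.05). let-7b-5p was 1.53-fold higher, short of a call. let-7g-5p was 2.07-fold lower, at 20770 ppm in DCreg and 42997 ppm in maDC, and 2.32-fold lower by recount. miR-98-5p was 2.37-fold lower, at 346 ppm in DCreg and 819 ppm in maDC, and 2.25-fold lower by recount (interval 2.10 to 2.42). The 3 calls were the same members on both scales, and all 9 directions were the same. Under other scalings let-7c-5p and let-7g-5p could fall short of 2-fold. let-7c-5p was at a log2 ratio of 0.71 with all listed reads as the total. let-7g-5p was at -0.93 with the total taken without the let-7 family and at -0.95 under the trimmed mean of M-values. miR-98-5p stayed at -1.12 or below. Of all 138 miRNAs compared, 20.3% were called higher in DCreg and 28.3% lower, and by recount 18.1% and 24.8% of 105. The median log2 ratio was -0.43 over the members and -0.34 over all 138.

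DCreg against imDC, which shares its libraries with the comparisons above, showed the widest divergence. let-7c-5p was 4.01-fold higher in DCreg, let-7b-5p 3.38-fold and let-7f-5p 2.06-fold. miR-98-5p was 4.22-fold lower, let-7i-5p 2.67-fold and let-7g-5p 2.37-fold. By recount let-7c-5p was higher 3.21-fold, let-7b-5p 2.44-fold and let-7f-5p 1.47-fold, and miR-98-5p, let-7i-5p and let-7g-5p were 4.61-fold, 3.55-fold and 3.18-fold lower. let-7d-3p, at 308 reads in DCreg and 855 in imDC, was also 2.07-fold lower by recount (interval 1.82 to 2.37), although on deposited values its log2 ratio was -0.58, and 0.07 and 0.13 under the trimmed mean of M-values and the median of ratios, a pair of other scalings. The lower calls of let-7i-5p and let-7g-5p also depended on the scaling. Their log2 ratios were -0.86 and -0.69 with the total taken without the let-7 family. Under the trimmed mean of M-values they were -0.76 and -0.59, and under the median of ratios both fell short of 2-fold as well. miR-98-5p stayed at -1.36 or below. let-7a-5p and let-7d-5p passed 2-fold higher under the trimmed mean of M-values, at 1.04 and 1.03, and under the median of ratios. By recount let-7a-5p stood at 119448 ppm in DCreg and 119683 ppm in imDC. Of all 168 miRNAs compared, 16.1% were called higher in DCreg and 56% lower on the deposited scale, and by recount 12.1% and 65.2% of 141. The median log2 ratio was 0.37 over the members and -1.25 over all 168. The family sum was 1.64-fold higher in DCreg on the deposited scale and 1.48-fold higher by recount.

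**Figure D3:**
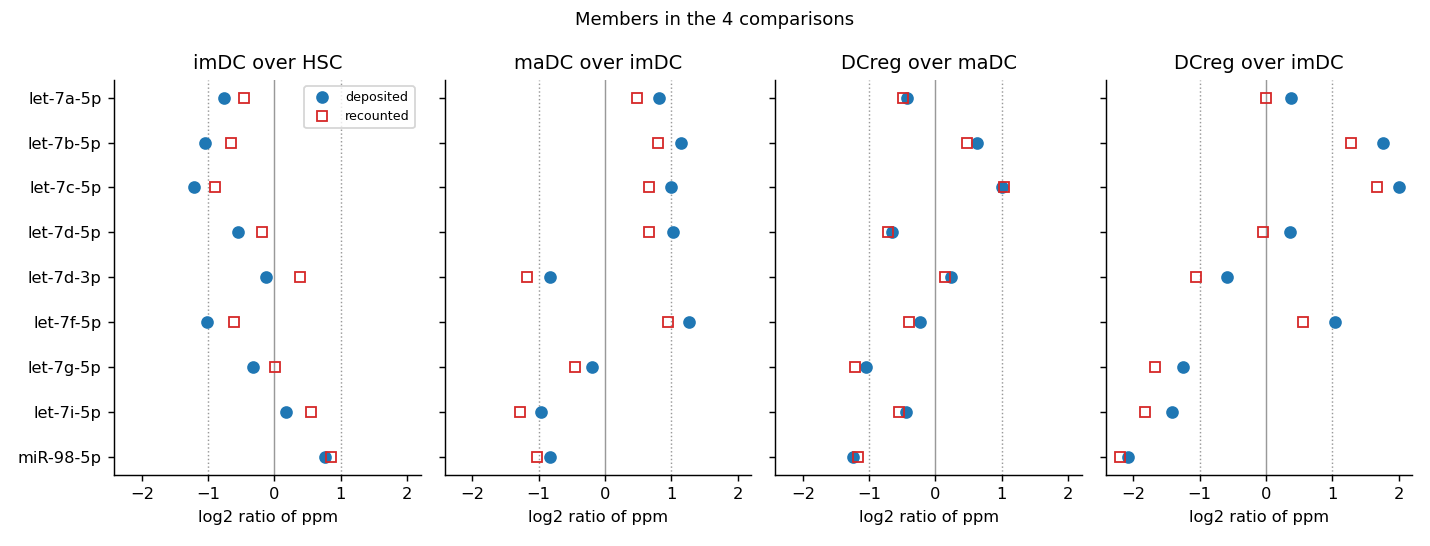
log2 ratio of ppm for each member in the 4 comparisons, from deposited values (filled circles) and recounted reads (open squares); dotted lines mark 2-fold and the solid line no difference. In DCreg over imDC, let-7b-5p and let-7c-5p lie beyond 2-fold on the right and let-7g-5p, let-7i-5p and miR-98-5p beyond 2-fold on the left on both scales.

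Ratios between members within a library need no scaling and show the same divergence. By recount let-7c-5p had 0.889 reads for each let-7a-5p read in HSC and 0.658 in imDC, and 0.741 in maDC and 2.12 in DCreg. let-7b-5p had 0.343 per let-7a-5p read in HSC, 0.3 in imDC, then 0.375 in maDC and 0.732 in DCreg. Both ratios were highest in DCreg. let-7i-5p had 0.175 per let-7a-5p read in HSC and 0.351 in imDC, and 0.103 in maDC and 0.0992 in DCreg, and let-7g-5p had 0.24, 0.334, 0.175 and 0.105. These were highest in imDC and lowest in DCreg. The ratio of let-7c-5p to let-7i-5p reads was 5.07 in HSC, 1.87 in imDC, then 7.18 in maDC and 21.4 in DCreg. In shares of the family's recounted reads, let-7c-5p made up 21.6% in HSC and 16.3% in imDC, and 17.4% in maDC and 35.4% in DCreg, and let-7i-5p made up 4.26%, 8.71%, 2.42% and 1.66%.

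**Figure D4:**
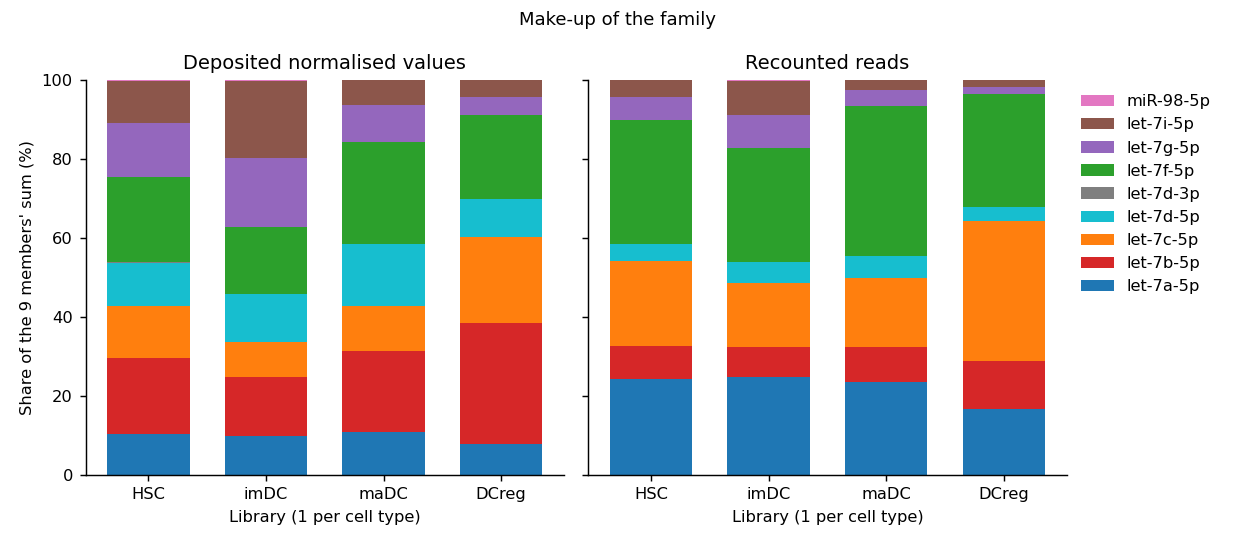
Share of each member in the sum of the 9 members (%), by library, from deposited values (left) and recounted reads (right). let-7c-5p takes 35.4% of the family's recounted reads in DCreg, against 17.4% in maDC.

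Members encoded together did not keep fixed proportions. let-7f-5p, in part from the let-7d hairpin's cluster, had 7.37 reads per let-7d-5p read in HSC, 5.5 in imDC, then 6.7 in maDC and 8.3 in DCreg. let-7c-5p and let-7b-5p, which share the chromosome 15 cluster, varied to a like degree, with 2.59, 2.2, 1.97 and 2.89 let-7c-5p reads per let-7b-5p read in the same order. miR-98-5p, which shares its Huwe1 intron region with Mirlet7f-2, had 0.00305, 0.00836, 0.00211 and 0.00124 reads per let-7f-5p read in HSC, imDC, maDC and DCreg, highest in imDC and lowest in DCreg. let-7f-5p also comes from chromosome 13 and let-7c-5p from chromosome 16, so these ratios mix loci.

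The miRNAs encoded beside let-7 hairpins give another view of those loci. miR-99a-5p, from the Mirlet7c-1 locus, was at 175 ppm in HSC, 29.7 ppm in imDC, 8.27 ppm in maDC and 345 ppm in DCreg. miR-125b-5p, made from hairpins near Mirlet7c-1 and near Mirlet7a-2, was at 58.0, 13.5, 16.1 and 363 ppm. Both were highest in DCreg, where let-7c-5p was highest too. The match was not complete: miR-99a-5p was lower in maDC than in imDC, while let-7c-5p was higher. let-7a-5p, in part from the Mirlet7a-2 locus, was highest in maDC, and let-7b-5p, from neither locus, was highest in DCreg. miR-100-5p, from the Mirlet7a-2 locus, stayed under 100 ppm everywhere, with 39.7 ppm in HSC, 0.571 ppm in imDC, 0.670 ppm in maDC and 33.4 ppm in DCreg. let-7e-5p, from a hairpin on chromosome 17, was at 3606 ppm in HSC, 6943 ppm in imDC, 26478 ppm in maDC and 51264 ppm in DCreg, with its neighbours miR-99b-5p and miR-125a-5p also highest in DCreg, at 2497 and 423 ppm. let-7e-5p differs from let-7a-5p by T9G, and the most-read comparable change of let-7a-5p would amount to 61.7% of the full-length let-7e-5p reads in HSC and 23.1% in imDC, then 5.04% in maDC and 4.43% in DCreg, so its HSC and imDC levels are uncertain. Of these 6 neighbours, 4 of the 5 that passed the minimum were called higher in DCreg against maDC, beside 20.3% of all miRNAs compared, and 5 of 5 against imDC, beside 16.1%. miR-99a-5p and miR-125b-5p passed the minimum only through their DCreg level in both comparisons, and miR-125a-5p did so against imDC. At these DCreg levels only a higher call was possible, so those calls follow from the minimum. The stromal list, 5 miRNAs common in fibroblast-like cells, summed to 255 ppm in DCreg and 177 ppm in maDC, with miR-143-3p at 155 ppm in DCreg and 40.9 ppm in maDC and the other 4 between 0.367 and 79.6 ppm in DCreg and between 0.447 and 119.5 ppm in maDC. By recount the order of the stromal sums was reversed, with 295 ppm in DCreg and 319.5 ppm in maDC. In HSC the stromal list summed to 1083 ppm on the deposited scale. The 2 endothelial miRNAs summed to 1.47 ppm in DCreg and 2.46 ppm in maDC. The 3 muscle miRNAs summed to 259 ppm in DCreg and 45.6 ppm in maDC, with miR-133a-3p listed at 0 in both. miR-1a-3p and miR-206-3p were both called higher in DCreg, at 129.5 ppm each, against 14.3 and 31.3 ppm in maDC. They too passed the minimum only through their DCreg level, so a lower call was not possible. The part of stromal or muscle RNA in the DCreg levels of let-7c-5p was not tested.

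Passenger arms were far less abundant than guide arms. let-7d-5p had 234 reads per let-7d-3p read in HSC and 157 in imDC, and 566 in maDC and 315 in DCreg, a ratio highest in maDC. The other passenger arms of the let-7 hairpins, 11 names that include let-7e-3p, with 10 distinct sequences because let-7a-1-3p and let-7c-2-3p are identical, summed to 119 ppm in HSC, 134 ppm in imDC, 51.2 ppm in maDC and 71.9 ppm in DCreg. None reached 100 ppm in any library, so none entered the calls. All 11 were listed lower in maDC than in imDC, 2 of them with a value of 1 in imDC and 0 in maDC, and so were 64.8% of 809 other miRNAs under 100 ppm in both libraries. The guide arms of let-7g, let-7i and miR-98 were lower in maDC as well on deposited values, and those of let-7a, let-7b, let-7c, let-7d and let-7f higher, but let-7g-5p was higher under some other scalings, up to a log2 ratio of 0.51. By recount the most-read of them in imDC was let-7f-1-3p, with 10 reads in maDC and 140 in imDC, and miR-98-3p had 27 reads in maDC and 135 in imDC.

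The 3′ ends of the reads set let-7i-5p and let-7b-5p apart from the other 5p members. The commonest sequence of each member was the annotated one, and 98.9% to 99.9% of the reads of the 8 5p members began at the annotated 5′ end, so the seed was rarely shifted. let-7d-3p began there in 90.6% to 93.5% of its reads. The 3 most-read sequences of let-7i-5p, summed over the 4 libraries, follow in the DNA letters of the deposited lists, since a shortened form ranks among them.
let-7i-5p, annotated: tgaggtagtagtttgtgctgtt
let-7i-5p, 19 nt: tgaggtagtagtttgtgct
let-7i-5p, 21 nt: tgaggtagtagtttgtgctgt

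The 19-nt form made up 21% of let-7i-5p reads in HSC (31584 reads), 18.8% in imDC (41528 reads), 1.59% in maDC (1517 reads) and 4.07% in DCreg (1893 reads). It was thus frequent in HSC and imDC and rare in maDC and DCreg. let-7b-5p cut at the same length was the next highest, with 7% of its reads in HSC, 4.99% in imDC, then 0.375% in maDC and 1.13% in DCreg. In the other 6 members the 19-nt form made up at most 1.98% of the reads in any library. let-7b-5p and let-7i-5p are also the only members of the 8 that carry A17G relative to let-7a-5p. Reads short by 2 or more bases made up 34% of let-7i-5p in HSC and 31.7% in imDC, and 4.56% in maDC and 10.3% in DCreg. The median of such reads over 46 miRNAs outside the family with at least 1000 reads in every library was 7.28%, 6.37%, 1.98% and 5.17% in the same order, so maDC was lowest there as well. With only reads of the whole annotated sequence counted, the log2 ratio of let-7i-5p in maDC against imDC was -0.95, short of 2-fold, whereas it was -1.28 with all recounted reads and -0.97 on the deposited scale.

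Added bases varied by library too. An A added after the annotated end, which no let-7 hairpin encodes at that position, was found on 9.85% of let-7a-5p reads in HSC and 16.1% in imDC, then on 13% in maDC and 9.03% in DCreg. On let-7b-5p the share was 13.7% in HSC, 22.2% in imDC, then 17.4% in maDC and 14.9% in DCreg. The share was highest in imDC for 8 of the 8 5p members, by a margin that was small for miR-98-5p, with 2.28% in maDC and 2.32% in imDC. Among the 46 other miRNAs, where an A that the hairpin itself encodes was not told apart, imDC was highest for 19 and maDC for 19. An added U can be told from the hairpin's own bases only where the hairpin continues with another base, as it does for let-7i-5p and miR-98-5p. let-7i-5p carried such a U on 12.2% of its reads in HSC, 6.04% in imDC, then 14.5% in maDC and 17.7% in DCreg, lowest in imDC, where the added A was highest. miR-98-5p carried it on 4.06%, 2.71%, 3.55% and 3.51%.

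Loss of a single 3′ base was commonest in DCreg for 7 of the 8 5p members, the exception being miR-98-5p. For let-7f-5p it was found on 10.6% of reads in HSC and 6.32% in imDC, and 6.31% in maDC and 11.5% in DCreg. Among the 46 other miRNAs DCreg was highest for 17. The annotated end itself was commonest in maDC for 8 of the 8, at 44% of let-7b-5p reads and 79.2% of let-7f-5p reads, and for 14 of the 46 others.

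miR-98-5p needs a reservation, because part of its reads lie as close to far more abundant members. The third of its most-read sequences, with the bases beyond the match to miR-98-5p in capitals, is given for that reason.
miR-98-5p, 22 nt: tgaggtagtaagttgtatGGTT

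Across all 22 bases this read differs from miR-98-5p by T19G and from let-7c-5p by G11A. It made up 6.82% of the miR-98-5p reads in HSC, 1.15% in imDC, then 4.03% in maDC and 13.6% in DCreg. The share was largest in DCreg, where let-7c-5p was highest but miR-98-5p had its fewest reads, 997. The read itself numbered 136 in DCreg, against 230 in HSC, 71 in imDC and 127 in maDC. Per 1000000 full-length let-7c-5p reads it was lowest in DCreg, at 195. It was at 491 in HSC, and at 252 and 257 in imDC and maDC. A like read, T19A from miR-98-5p and G11A from let-7a-5p, made up 8.09% in HSC, 1.02% in imDC, then 3.71% in maDC and 5.12% in DCreg. All miR-98-5p reads that are shortened and end in unmatched bases, which include both, made up 26.6% in HSC and 4.79% in imDC, then 12.2% in maDC and 32.6% in DCreg. Whether these are reads of let-7c-5p or let-7a-5p was not tested. Full-length miR-98-5p reads alone, which hold none of these, numbered 1601 in HSC and 4128 in imDC, and 2177 in maDC and 443 in DCreg. In ppm they came to 308 in HSC and 784 in imDC, then 394 in maDC and 113 in DCreg. imDC was highest and DCreg lowest, as with all its reads, but maDC stood above HSC, whereas with all its reads miR-98-5p was at 571 ppm in maDC and 649 ppm in HSC.

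**Figure D5:**
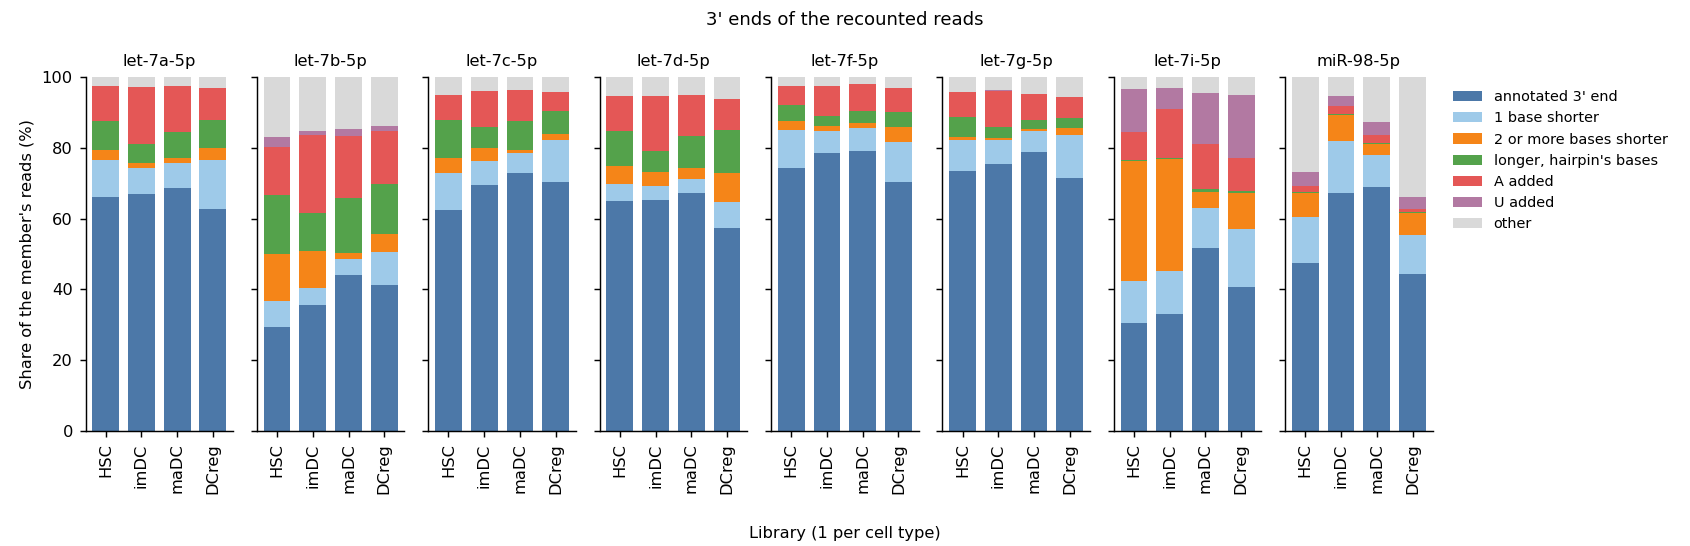
Share of each 5p member's recounted reads (%) by 3′ end, in the 4 libraries: annotated end, shorter by 1 base, shorter by 2 or more, longer by the hairpin's own bases, with added A, with added U, and all other reads. let-7i-5p reads short by 2 or more bases take 34% in HSC and 31.7% in imDC, then 4.56% in maDC and 10.3% in DCreg.

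The profile of the family sum over the 4 libraries was matched most closely by miR-342-3p, miR-185-5p and miR-101a-3p. Likeness was the Euclidean distance between log2 deposited levels centred on their mean over the 4 libraries, taken over 188 miRNAs at 100 ppm or more in at least 1 library, and the distances were 0.477, 0.546 and 0.569. miR-342-3p stood at 2070 ppm in HSC, 1814 ppm in imDC, 2098 ppm in maDC and 1914 ppm in DCreg, which like the family sum was lowest in imDC. By recount it was instead highest in imDC, with 1173 ppm in HSC, 1384 ppm in imDC, 1236 ppm in maDC and 1103 ppm in DCreg, and miR-185-5p was highest in imDC too, unlike the family sum; likeness was not computed on recounted values. Among the members, 5 of 9 had another member among the 3 most alike of 197 miRNAs. let-7b-5p and let-7c-5p were each other's nearest, at a distance of 0.301. For miR-98-5p the nearest was miR-103-3p, at 0.101, with 12934 ppm in HSC, 20328 ppm in imDC, 11546 ppm in maDC and 4790 ppm in DCreg. These likenesses rest on 4 libraries whose values are shares of 1 total.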

How the data were processed

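Small RNA of 18 to 30 nt was sequenced on an Illumina Solexa instrument after adaptor ligation and 12 cycles of PCR, per the labels' protocols. The same protocols state that ribosomal, transfer, messenger and small nuclear and nucleolar RNA reads were removed, and that the cleaned reads were searched against miRBase 19. No source used here names the aligner, its mismatch limit or its rule for reads matching several places. The authors deposited a table of score values, whole numbers that they had normalised by a method not stated and headed as normalized counts, per the file headers. They were not treated as raw counts and no count model was used. The authors also deposited, for each library, a list of unique sequences with their copy numbers. 0 columns of per-sample values were left unused.

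The 1195 table entries were summed over hairpins to 1078 mature miRNAs and scaled to the column total. Reads were recounted when at least 16 bases matched exactly, the 5′ end lay within 2 bases of the annotated one and at most 5 bases at the 3′ end were unmatched. The longest match won and ties were split equally. The recount was tested on simulated reads. A difference was called at 2-fold, with a pseudocount of 0.5 and at least 100 ppm in either library. Exact 95% intervals were Clopper-Pearson. PCR copies carry no molecular identifiers, so intervals cover counting error only. The analysis used Python 3.11.15, pandas 2.3.3, numpy 2.4.6, scipy 1.17.1 and matplotlib 3.10.9.

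Named miRNAs were all 9 members, the neighbours and passenger arms of their hairpins, other miRNAs with the same seed, and the 3 most like the family sum. For each member the 3 most-read sequences were ranked. The members and lists were chosen with earlier results of these data known. Alternatives covered the scaling, the pseudocount, the minimum level and the rules of the recount.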

Additional observations from a re-analysis of the deposited data

How the results depend on the processing

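No paired analysis was possible because each cell type has 1 library. No difference called at 2-fold on the deposited scale changed sign under any alternative. With the total taken without the let-7 family, the log2 ratio of the family sum was -1.06 in imDC against HSC, 1.11 in maDC against imDC and 1.27 in DCreg against imDC. Under the trimmed mean of M-values the last 2 were 1.22 and 1.37, and under the median of ratios 1.37 and 1.43, all past 2-fold, which the deposited totals did not reach. It was nearer 0 with all listed reads as the total, at -0.42, 0.43 and 0.19, and with the whole annotated sequence alone, at -0.30, 0.37 and 0.38. In DCreg against imDC let-7d-3p, called lower by recount, was at 0.07 and 0.13 under the trimmed mean of M-values and the median of ratios. In DCreg against maDC the family sum was -0.24 with all listed reads as the total and 0.00 with reads of 20 to 24 nt, against 0.05. The number of members 2-fold different in imDC against HSC, 3 on the deposited scale and all lower, was 1 lower under the trimmed mean of M-values, 1 higher (miR-98-5p) with all listed reads, 1 higher (miR-98-5p) with no unmatched 3′ base and 0 by recount, by recount at the annotated 5′ end, of 20 to 24 nt or without shared reads. The family shares by recount were 67.9%, 48.3%, 71.3% and 71.5% in HSC, imDC, maDC and DCreg. Counting the whole annotated sequence alone, an alternative chosen after seeing the data, gave 1 higher member (miR-98-5p) in imDC against HSC and 2 lower members in maDC against imDC, where the deposited scale gave 4, all higher. The trimmed mean of M-values moved the median log2 ratio of all miRNAs by 0.21 in imDC against HSC, 0.55 in maDC against imDC and 0.65 in DCreg against imDC, and the median of ratios by -0.09, 0.70 and 0.72. Of 432 member ratios, 36 under 12 alternatives, 296 kept direction and side of the 2-fold line, 66 fell below it, 38 passed it and 32 not called at 2-fold changed sign. The 12 include 2 changes of pseudocount, which hardly alter values as large as these. All member ratios under them are among the 296, which says nothing about stability. Counted over the same 12 alternatives, the direction stayed the same for 6 of 9 members in imDC against HSC, 8 in maDC against imDC, 8 in DCreg against maDC and 6 in DCreg against imDC. The cause was not tested.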
